A study of Saccharomyces cerevisiae with 4 samples.

Results

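The genes described here are those by which budding yeast (Saccharomyces cerevisiae) makes and breaks down trehalose. The 7 genes TPS1, TPS2, TSL1, TPS3, NTH1, NTH2 and ATH1 were found by name, each in 1 row, among 6720 rows with a gene ID. All 7 were above the filter on low values, a mean of 1 FPKM or more, among 6355 such rows tested. RNA sequencing of total RNA gave the expression level of each gene in FPKM, that is, fragments per kilobase of the gene, set against all fragments mapped in that library. Cells labelled wild type (WT), the only strain label given, grew at 30 °C in synthetic complete medium. The calorie-restricted group (CR) had 0.05% glucose and the non-restricted group (NR) 2% glucose, with 2 biological replicates, A and B, in each. For harvest, no time or cell density is given in the sources used here.

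Trehalose is a sugar of paired glucose units that yeast stores as a carbon reserve and that protects proteins and membranes under stress. Its synthesis runs through trehalose phosphate, made from UDP-glucose and glucose phosphate by Tps1 and then dephosphorylated by Tps2, in a complex with the related regulatory subunits Tsl1 and Tps3. Breakdown to glucose is the work of trehalases: Nth1 and Nth2 are neutral, cytosolic enzymes, whereas Ath1 is an acid trehalase linked to the vacuole and the cell surface. Synthesis and breakdown genes can be expressed at the same time, and the activity of the enzymes is also set after translation, which RNA levels do not show.

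The stress response element (STRE), the letters AGGGG on either strand, is the site bound by the activators Msn2 and Msn4, and trehalose synthesis genes are textbook cases of genes that carry it. It is shown here as a description, and whether it bears on the changes in CR was not tested. In the 500 bases before the start codon, a length chosen after the members' values were known, AGGGG occurred 6 times at TPS1, 5 at TSL1, 4 at TPS2, 3 at NTH1, 2 at TPS3, 1 time at ATH1 and 0 times at NTH2. Of 6000 protein-coding genes with such a stretch, 34.1% held the motif, 8.13% held 2 or more copies and 1.83% held 3 or more. A second window ran from 250 bases before to 50 after the start codon. Its counts were 3 each at TPS1, TSL1 and TPS3, 1 at NTH1 and 0 at TPS2, NTH2 and ATH1. Of the 3 at TPS1 and the 3 at TPS3, 1 each lay after the start codon, within the gene's own coding bases. Of 6001 genes, 21.6% held the motif in this window and 0.483% held 3 or more copies. The stretches below run from 15 bases before the outermost match to 15 bases after the innermost, cut at base -500, and were read 5′ to 3′ on the gene's strand from the R64 genome of RefSeq. Capitals mark AGGGG or its complement CCCCT, and bases are counted backwards from the start codon.
TPS1, chrII:490612-490879, minus strand, bases -487 to -220: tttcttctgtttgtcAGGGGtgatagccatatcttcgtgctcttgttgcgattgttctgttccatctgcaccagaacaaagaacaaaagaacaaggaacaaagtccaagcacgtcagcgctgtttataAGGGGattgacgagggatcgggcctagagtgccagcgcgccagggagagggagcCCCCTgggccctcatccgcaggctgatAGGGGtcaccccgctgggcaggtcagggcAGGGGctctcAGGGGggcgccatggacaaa
TPS2, chrIV:593393-593604, plus strand, bases -500 to -289: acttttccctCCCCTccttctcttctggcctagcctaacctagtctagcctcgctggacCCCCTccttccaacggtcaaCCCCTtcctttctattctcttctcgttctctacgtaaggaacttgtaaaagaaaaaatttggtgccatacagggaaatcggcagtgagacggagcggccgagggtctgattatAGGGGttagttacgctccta
TSL1, chrXIII:70231-70478, plus strand, bases -393 to -146: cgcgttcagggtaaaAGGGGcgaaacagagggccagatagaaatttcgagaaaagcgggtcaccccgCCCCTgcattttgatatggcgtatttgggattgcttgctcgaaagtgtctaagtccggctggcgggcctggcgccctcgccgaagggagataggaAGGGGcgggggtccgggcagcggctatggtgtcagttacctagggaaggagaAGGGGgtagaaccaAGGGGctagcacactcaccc
TPS3, chrXIII:793567-793619, minus strand, bases -250 to -198: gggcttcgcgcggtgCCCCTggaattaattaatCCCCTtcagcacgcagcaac
NTH1, chrIV:452608-452840, minus strand, bases -365 to -133: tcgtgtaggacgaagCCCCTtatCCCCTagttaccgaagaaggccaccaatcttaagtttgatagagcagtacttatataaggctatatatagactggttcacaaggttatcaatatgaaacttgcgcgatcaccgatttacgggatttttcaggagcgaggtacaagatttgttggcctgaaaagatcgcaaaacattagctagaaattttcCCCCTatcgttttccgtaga
ATH1, chrXVI:615060-615094, plus strand, bases -319 to -285: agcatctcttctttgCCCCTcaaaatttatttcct

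The 4 synthesis genes differed in how their matches were placed. At TPS1 the copies nearest the gene lay 249 and 239 bases before the start codon, both on the gene's strand, and at TSL1 3 copies lay 231, 179 and 165 bases before it, also on that strand. At TPS3, the paralog of TSL1, both copies were on the other strand, 235 and 217 bases before the start codon. All 4 copies at TPS2 were more than 300 bases away, the nearest at 308. In 2 genes a match lay within a coding neighbour: the farthest copy at TPS1, at 472, lay within MEO1, and the farthest 2 at TSL1, at 378 and 326, lay within YML100W-A. The core of the heat shock element, GAANNTTC, which reads the same on both strands, occurred in the 500 bases of TSL1 (2 copies, both within YML100W-A), ATH1 (2) and NTH2 (1), against 19.2% of all 6000. No match of one motif overlapped a match of the other. A match of these letters is a description, not a shown binding site.

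**Figure D1:**
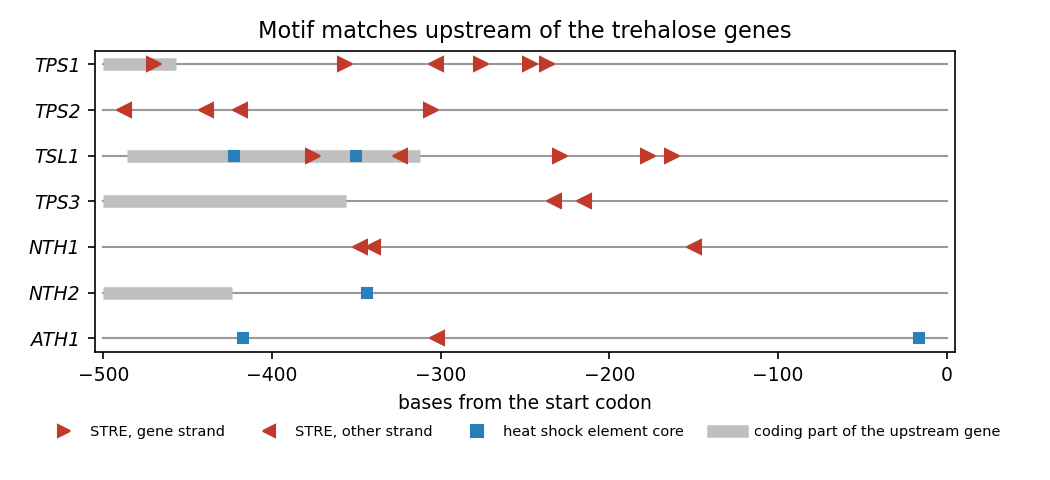
Positions of motif matches in the 500 bases before the start codon of each trehalose gene (horizontal axis, bases from the start codon). Red triangles are AGGGG on the gene's strand (pointing right) or the other strand (pointing left), blue squares the heat shock element core, and grey bars coding parts of the upstream gene. TPS1 has 6 red triangles and NTH2 has 0.

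In CR, 6 of the 7 trehalose genes rose and 0 fell, and the genes for breakdown rose along with those for synthesis. Of all genes tested, 17.7% passed as higher and 13.2% as lower. Each log2 fold below is CR over NR of FPKM + 1, a scale that makes changes of low genes look smaller. Calls were made with limma, as a two-sided test, at a Benjamini-Hochberg adjusted p of 0.05 over all 6355 genes. Scaled to a common median, which moves the median log2 fold by -0.13, the counts over all genes were 955 higher and 1174 lower against 1126 and 836, with 6 trehalose genes still higher. The median log2 fold was 1.34 over the 7 genes, 1.28 over the 4 for synthesis and 1.78 over the 3 for breakdown, beside 0.06 over all genes tested. TPS3 was the gene that did not pass. All 7 genes had both CR libraries above both NR libraries, as did 39.2% of all genes tested. Each library pools the RNA of many cells, so more cells holding a transcript and more transcript per cell cannot be told apart. FPKM values are relative to the library, so a change in total RNA per cell does not show in them.

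The counts rested on the replicates that set the spread. Without NR A, and likewise without NR B, ATH1 alone passed, since only the CR pair was left to set the spread, and 72 and 123 of all genes passed as higher. Without CR A, and likewise without CR B, only the NR pair was left to set the spread. Its SD of A minus B over root 2 was 0.27 over all genes tested, against 0.45 for the CR pair. Passing under those settings is therefore not a measure of how well a call holds. The log2 fold of TPS3 was 0.20 without CR A and 0.94 without CR B. The test of 2 against 2 libraries cannot go below 0.333 by exact permutation, so each call rests on the spread that limma shares among genes.

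**Figure D2:**
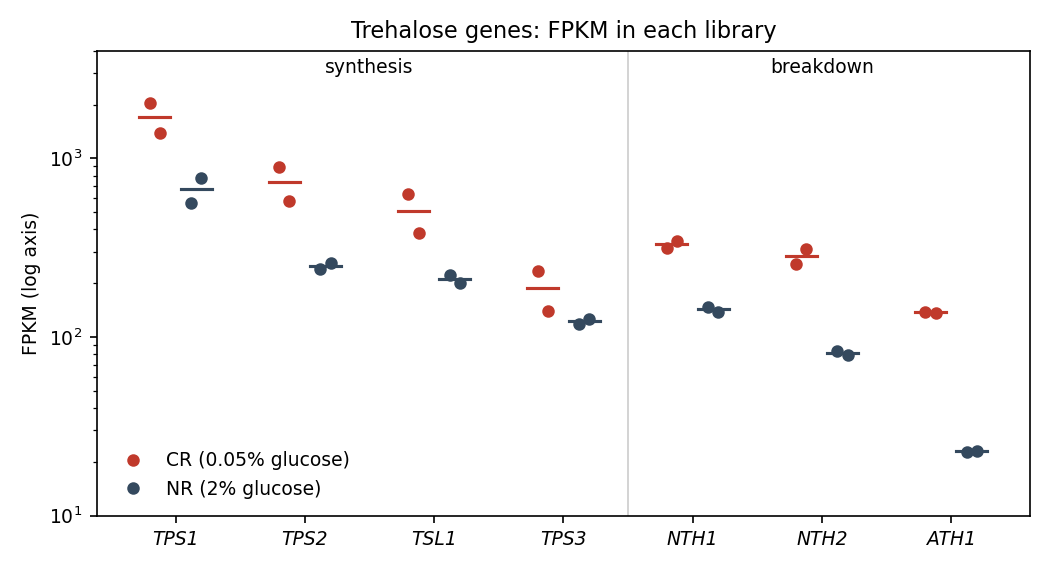
FPKM (vertical log axis) of each trehalose gene in every library, CR left of NR. Points are the 2 libraries of a group, A left and B right, and lines their mean. All CR points lie above the NR points of the same gene, with the narrowest gap at TPS3.

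TPS1, which encodes the trehalose phosphate synthase, was the most abundant of the 7 in every library. It lies on chromosome II (488905 to 490392, minus strand, R64 coordinates) and, like the other 6 genes, has 1 coding exon. It had 2040.4 and 1383 FPKM in the libraries CR A and CR B, against 566 and 776 in NR A and NR B. Both CR libraries were above both NR libraries, but the replicates of each group lay well apart. The means were 1712 ± 465 FPKM in CR and 671 ± 149 in NR (SD, n = 2 each), a log2 fold of 1.34 (SE 0.32, limma adjusted p = 0.033). This call was lost without the filter on low values (adjusted p = 0.064). The gene stood above 98.3% and 97.8% of tested genes in CR A and CR B, and above 93.5% and 95.1% in NR A and NR B.

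TPS2, which encodes the phosphatase that finishes the synthesis, had the largest log2 fold of the 4 synthesis genes. It lies on chromosome IV (593893 to 596583, plus strand). It had 897 and 576 FPKM in CR A and CR B, against 239 and 258 in NR A and NR B, so that the lower CR library was 2.23 times the higher NR library. The mean was 736 ± 227 FPKM in CR and 249 ± 13.4 in NR, a log2 fold of 1.53 (SE 0.29, limma adjusted p = 0.019).

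TSL1 and TPS3 encode the large regulatory subunits and are paralogs whose coding sequences are 67.2% identical over the aligned bases. Both are on chromosome XIII, TSL1 at 70624 to 73920 (plus strand) and TPS3 at 790205 to 793369 (minus strand). TSL1 had 634 and 384 FPKM in CR A and CR B, against 223 and 199 in NR A and NR B, a log2 fold of 1.22 (SE 0.30, limma adjusted p = 0.036). It lost its call without the filter on low values (adjusted p = 0.071). TPS3 had 235 and 140.4 FPKM in CR A and CR B, against 119 and 126 in NR A and NR B. Its lower CR library was only 1.12 times its higher NR library, and it did not pass, with a log2 fold of 0.57 (95% interval -0.18 to 1.32, limma adjusted p = 0.20). Of the settings tried, TPS3 passed in 1, without CR B (log2 fold 0.94, adjusted p = 0.010).

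TSL1 was higher relative to TPS3 in both CR libraries. Within a library, TSL1 was at 2.70 times TPS3 in CR A and 2.73 times in CR B, against 1.87 times in NR A and 1.59 times in NR B. Such a ratio of FPKM does not depend on how libraries are scaled, and the groups did not overlap. Log2 ratios here and below were taken on FPKM + 1, so they do depend on the scaling and on the pseudocount. The CR minus NR difference of the log2 ratio was 0.66, beside a replicate SD of 0.12, with an exact permutation p of 0.333, the smallest that 4 libraries allow. Taken as shares of the summed FPKM of the 4 synthesis genes, TPS3 had 6.17% and 5.65% in CR A and CR B, against 10.4% and 9.24% in NR A and NR B. TPS2 held a larger share in CR, with 23.6% and 23.2%, against 20.9% and 19.0% in NR. The shares of TPS1 (53.6% and 55.7% in CR, 49.3% and 57.1% in NR) and of TSL1 (16.7% and 15.5% in CR, 19.4% and 14.7% in NR) overlapped between the groups.

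NTH1, the gene of the main neutral trehalase, lies on chromosome IV (450220 to 452475, minus strand). It had 317 and 344 FPKM in CR A and CR B, against 147 and 139 in NR A and NR B. Replicates were close in both groups, at 331 ± 19.6 FPKM in CR and 143 ± 5.63 in NR, and the log2 fold was 1.21 (SE 0.20, limma adjusted p = 0.014).

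NTH2 encodes the second neutral trehalase and lies on chromosome II (238941 to 241283, minus strand). It had 257 and 309 FPKM in CR A and CR B, against 83.0 and 79.5 in NR A and NR B. Its lower CR library was 3.10 times its higher NR library, and the log2 fold was 1.78 (SE 0.21, limma adjusted p = 0.0069). Coding sequences of NTH1 and NTH2 are 72.4% identical over the aligned bases, yet 99.9% of the 32-nt stretches of each occur once in the genome, so reads of that length can mostly be told apart.

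ATH1, the acid trehalase gene on chromosome XVI (615379 to 619014, plus strand), had the largest fold of the 7. It had 138 and 137 FPKM in CR A and CR B, against 22.7 and 23.1 in NR A and NR B. The replicates of each group nearly coincided while the group means, 137 ± 0.949 FPKM in CR and 22.9 ± 0.295 in NR, differed 6.01-fold, a log2 fold of 2.54 (SE 0.18, limma adjusted p = 0.0027). Of all genes tested, 1.90% had a larger log2 fold. ATH1 stood above 72.3% and 73.4% of tested genes in CR A and CR B, but above only 19.9% and 22.2% in NR A and NR B, the widest move in rank among the 7.

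**Figure D3:**
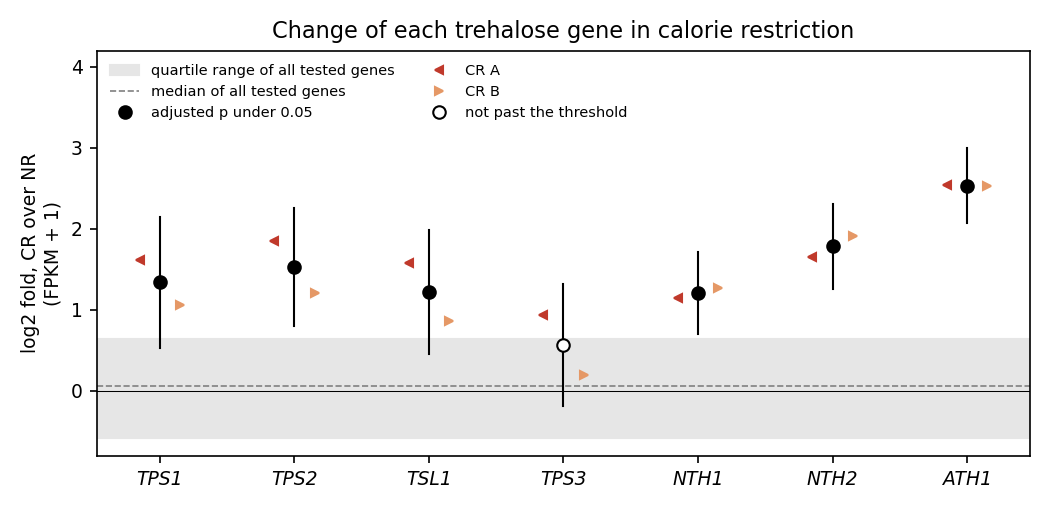
Log2 fold of CR over NR on FPKM + 1 (vertical axis) for each trehalose gene, with the 95% interval of the limma fit. Filled circles passed an adjusted p of 0.05 and the open circle, TPS3, did not; triangles give CR A and CR B against the NR mean, and the grey band spans the quartiles of all genes tested. In the synthesis genes CR A lies above CR B, and ATH1 has the largest fold at 2.54.

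Relative to NTH1, both other trehalase genes were higher in both CR libraries. ATH1 was at 0.436 and 0.397 times NTH1 in CR A and CR B, against 0.155 and 0.167 times in NR A and NR B, and the log2 ratio differed by 1.33 (replicate SD 0.085). NTH2 was at 0.813 and 0.898 times NTH1 in CR A and CR B, against 0.566 and 0.573 times in NR A and NR B, a difference of 0.58 (replicate SD 0.072). Both differences had an exact permutation p of 0.333, the smallest possible, with no overlap between groups. NTH1 thus held 44.5% and 43.6% of the summed FPKM of the trehalase genes in CR A and CR B, against 58.1% and 57.5% in NR A and NR B.

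The balance of synthesis over breakdown overlapped between the groups. TPS1 was at 6.44 and 4.02 times NTH1 in CR A and CR B, against 3.86 and 5.60 times in NR A and NR B. The CR minus NR difference of the log2 ratio was 0.13, with a replicate SD of 0.43 and an exact permutation p of 0.667. The summed FPKM of the 4 synthesis genes was 5.34 and 3.14 times that of the 3 trehalase genes in CR A and CR B, against 4.54 and 5.64 times in NR A and NR B, again overlapping.

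**Figure D4:**
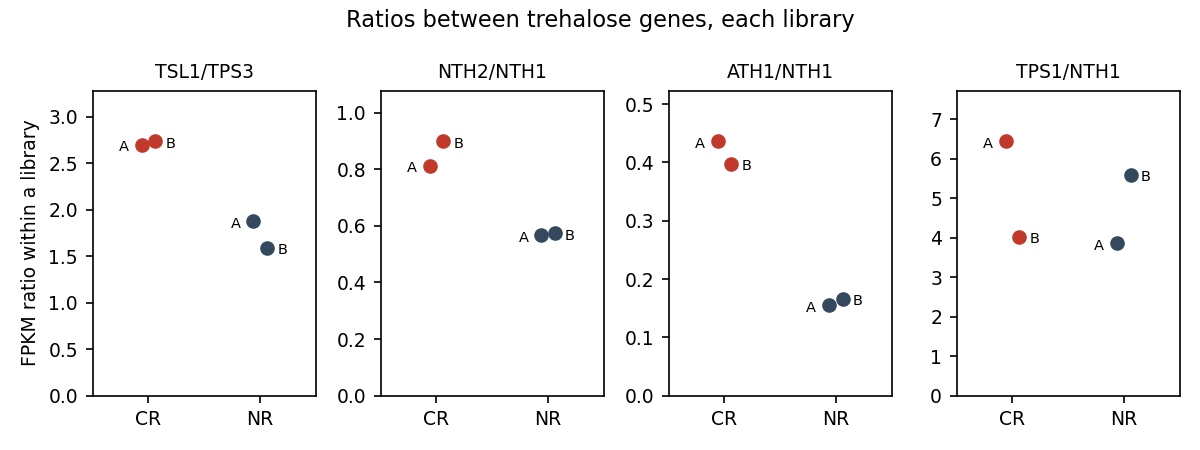
FPKM ratio of a pair of trehalose genes within each library (vertical axes from 0), CR left of NR, with the replicate letter beside each point. TSL1 over TPS3, NTH2 over NTH1 and ATH1 over NTH1 are higher in both CR libraries than in both NR libraries, and TPS1 over NTH1 overlaps.

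The order of levels within a library was the same in both replicates of a group. In CR it ran TPS1, TPS2, TSL1, NTH1, NTH2, TPS3 and ATH1. In NR it ran TPS1, TPS2, TSL1, NTH1, TPS3, NTH2 and ATH1, so that NTH2 and TPS3 changed places. In NR the values of neighbours in the order did not overlap. In CR, TPS2 (576 FPKM at its lowest) and TSL1 (634 at its highest) overlapped, and TPS3 in CR B, at 140.4 FPKM, was barely above the 138 FPKM of ATH1 in CR A.

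The CR replicates lay farther apart in the synthesis genes than in the trehalase genes. CR A was at 1.48 times CR B for TPS1, 1.56 for TPS2, 1.65 for TSL1 and 1.67 for TPS3, but at 0.920 times for NTH1, 0.832 for NTH2 and 1.01 for ATH1. Among all genes tested, 61.8% were higher in CR A, with a median log2 difference of 0.15, and a larger difference than that of TPS1 was found in 21.2% and than that of TPS3 in 13.0%. Rows of noncoding RNA without a gene ID made up 87.2% of all summed FPKM in CR B, against 27.4% in CR A, 34.0% in NR A and 29.9% in NR B; their part in these differences was not tested. The median FPKM of tested genes was 62.8 in CR A, 57.9 in CR B, 57.4 in NR A and 52.9 in NR B. Read totals were not used here. If the lowest values of long genes, under 0.04 FPKM kb and 5 to 7 per library, are single fragments, the least covered value, that of ATH1 in NR A, stood on an estimated 2358 fragments.

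Genes that supply the precursors of trehalose mostly rose too. Of 6 listed genes for glucose phosphate and UDP-glucose, 4 rose and 1 fell (median log2 fold 1.05, beside 0.06 over all genes tested, of which 17.7% rose and 13.2% fell). UGP1, the UDP-glucose pyrophosphorylase gene that feeds Tps1, had 1156 and 904 FPKM in CR A and CR B, against 445 and 513 in NR A and NR B (log2 fold 1.10, limma adjusted p = 0.030). The isozyme genes of phosphoglucomutase parted: PGM2, with 1879 and 1989 FPKM in CR A and CR B against 825 and 1126 in NR A and NR B, rose (log2 fold 1.003, adjusted p = 0.047). PGM1, with 70.6 and 38.7 FPKM in CR A and CR B against 142 and 131 in NR A and NR B, fell (log2 fold -1.36, adjusted p = 0.032). Of the sugar kinase genes, HXK1 (log2 fold 2.02) and GLK1 (1.31) rose. HXK2 leaned the other way and did not pass (log2 fold -1.09, limma adjusted p = 0.21). It had 780 and 230 FPKM in CR A and CR B, against 756 and 1083 in NR A and NR B. Without the filter on low values 1 of the 6 passed as higher, while the count over all genes went from 1126 to 778.

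Genes of trehalase regulation and trehalose uptake moved in both directions. Of 8 listed genes, called the trehalase regulation list below, 5 rose and 2 fell (median log2 fold 1.15). Over all genes tested 17.7% rose and 13.2% fell, with a median of 0.06. DCS1, whose product inhibits Nth1, rose (log2 fold 1.06, limma adjusted p = 0.027), and its paralog DCS2 rose, with 955 and 906 FPKM in CR A and CR B against 134 and 172 in NR A and NR B (log2 fold 2.61, adjusted p = 0.0041). TPK2 and TPK3 encode catalytic subunits of protein kinase A, which phosphorylates and activates Nth1. TPK2 rose (log2 fold 1.40), while TPK3, with 23.9 and 17.2 FPKM in CR A and CR B against 102 and 93.1 in NR A and NR B, fell (log2 fold -2.21, adjusted p = 0.0057). BCY1, the inhibitory subunit gene of that kinase, rose (log2 fold 1.24). BMH1, one of the adaptor proteins that bind phosphorylated Nth1, fell (log2 fold -1.06, adjusted p = 0.047), and its paralog BMH2 did not pass, with 137 FPKM in both CR libraries against 145 and 153 in NR A and NR B. MAL11, a transporter that can take up trehalose, rose (log2 fold 1.51, adjusted p = 0.012).

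Of 6 listed regulator genes, GIS1 (log2 fold 1.22) and YAK1 (1.06), genes of a nutrient-responsive transcription factor and kinase, rose and MSN4 fell (median log2 fold 0.17, beside 0.06 over all genes tested). With 17.7% of all genes tested called higher and 13.2% lower, counts of 2 and 1 among 6 are no result about this list. MSN4 had 27.3 and 22.3 FPKM in CR A and CR B, against 52.5 and 50.7 in NR A and NR B (log2 fold -1.03, limma adjusted p = 0.021). MSN2 was at 49.0 and 31.1 FPKM in CR A and CR B and at 36.2 in both NR libraries, so that the groups overlapped (log2 fold 0.11, adjusted p = 0.78). HSF1 and RIM15 did not pass either, though RIM15 passed as lower without CR A. Of 14 listed targets of the stress response element, 5 rose and 1 fell (median log2 fold 0.80), beside 17.7% higher, 13.2% lower and a median of 0.06 over all genes tested. HSP12, a small stress protein gene, had 40205 and 37225 FPKM in CR A and CR B, against 2215 and 4835 in NR A and NR B (log2 fold 3.56, adjusted p = 0.0096). DDR2, ALD3, CTT1 and TFS1 rose as well. HSP26 fell (log2 fold -1.11, adjusted p = 0.017), and HSP104, which encodes a disaggregase that works beside trehalose in heat tolerance, did not pass (log2 fold 0.24, adjusted p = 0.58). CR A was above CR B in 13 of these 14 genes and in the 4 synthesis genes, beside 61.8% of all genes tested. CR A was higher in 7 of the 8 genes of the trehalase regulation list and 5 of the 6 supply genes. It was higher in 4 of the 6 regulator genes and 6 of the 9 glycogen genes below, near the share over all genes. Of the 3 trehalase genes it was higher in 1.

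Glycogen is the other storage carbohydrate of yeast and draws on the same UDP-glucose. Of its 9 listed genes 7 rose and 0 fell, with a median log2 fold of 1.37 beside 1.34 for the trehalose genes. Over all genes tested 17.7% rose and 13.2% fell, with a median of 0.06. Here too genes of synthesis rose with those of breakdown: GSY2, the main glycogen synthase gene, had a log2 fold of 1.81 (limma adjusted p = 0.0078), and GDB1, the debranching enzyme gene, one of 2.36 (adjusted p = 0.0048). The phosphorylase gene GPH1 (log2 fold 0.98, adjusted p = 0.083) and GAC1 (-0.26, adjusted p = 0.32) did not pass. All the lists were written with earlier results of these data known, so their counts are descriptions. Without NR A 0 of the 43 genes in the 5 related lists passed, and without NR B 3 did, DCS2, TPK3 and GDB1. PGM2 and GLG2 lost their calls under a common median. Without the filter on low values HXK1, GLK1, PGM1, PGM2, BMH1, TFS1 and GLG2 lost theirs. GPH1 passed as higher without CR B (log2 fold 1.28).

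**Figure D5:**
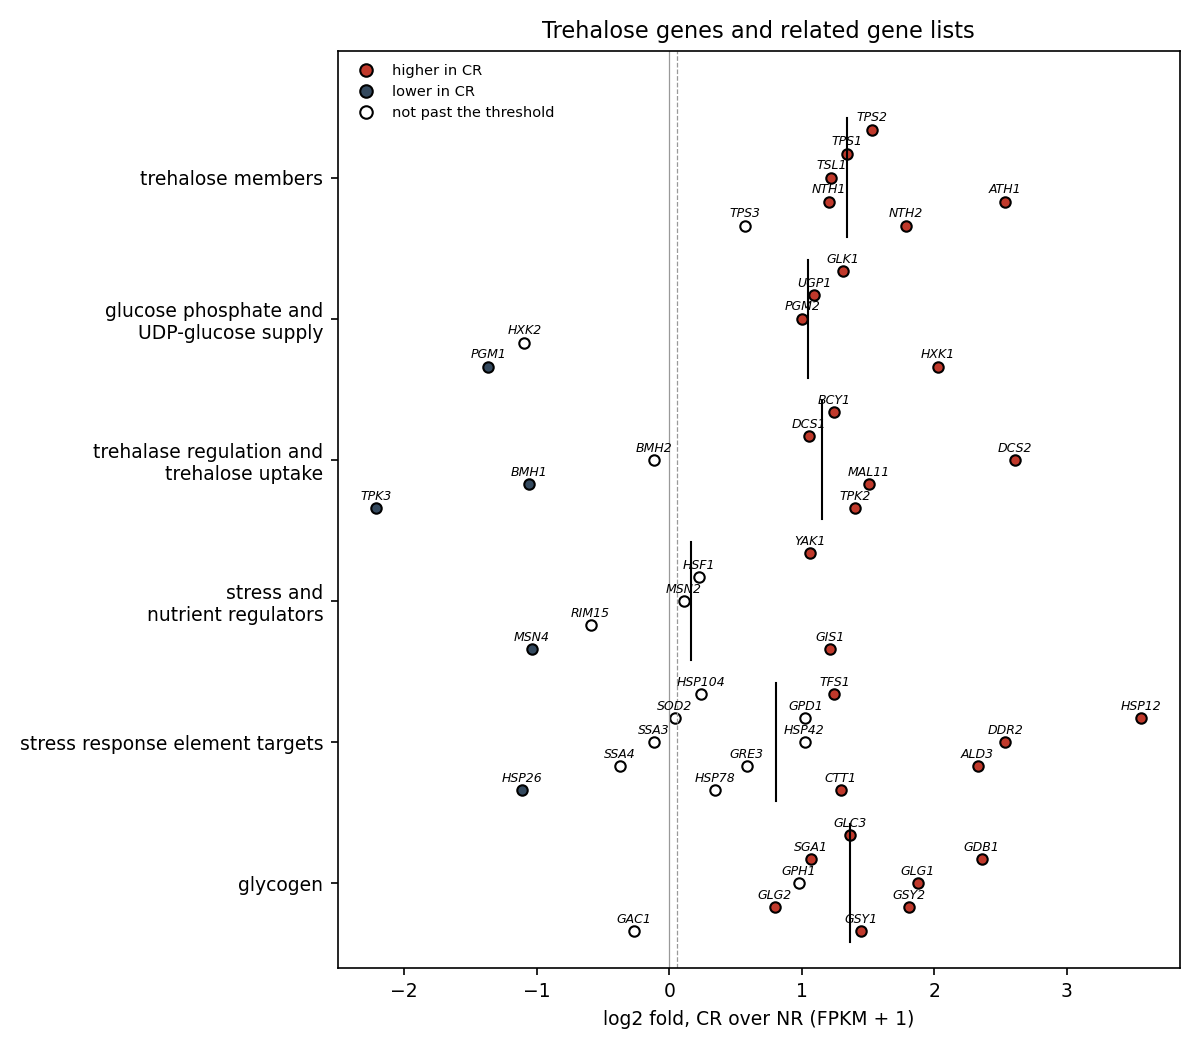
Log2 fold of CR over NR on FPKM + 1 (horizontal axis) for the trehalose genes and 5 related lists. Red points passed as higher, dark blue points passed as lower and open points did not pass; black bars are list medians and the dashed line the median of all genes tested. Most trehalose and glycogen genes lie near or above 1, and the regulators straddle 0.

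For each trehalose gene, the genes nearest to it were sought among 5461 RefSeq genes with a mean of 10 FPKM or more, as the smallest Euclidean distance between the profiles of log2(FPKM + 1) over the 4 libraries, each centred on its own mean. Nearest to ATH1 was CAT8, an activator gene of gluconeogenesis, at a distance of 0.148 (log2), with 183 and 160 FPKM in CR A and CR B against 26.8 and 29.3 in NR A and NR B, followed by YKL187C (0.155). Nearest to NTH2 were CTR2, a vacuolar copper transporter gene (0.050), and COX19 (0.077), and nearest to NTH1 were YGR127W (0.049) and RTS1, a phosphatase regulatory subunit gene (0.051). For TPS1 they were the proteasome gene PRE4 (0.075) and the mitochondrial import gene MIA40 (0.10), for TPS2 the mitochondrial ribosomal protein gene MRPL38 (0.062) and YFL051C (0.077), for TPS3 YLR253W (0.069) and IRC24 (0.075), and for TSL1 the mitochondrial ribosomal protein gene RSM18 (0.035), and the kinase gene NPR1 (0.050). The nearest other trehalose gene was farther in every case, but it was sought among 6 genes rather than 5461. The smaller pool alone makes that likely, so nothing follows about likeness among the trehalose genes. Its distance was 0.31 between TPS1 and TPS2, 0.36 between TSL1 and TPS2 and 0.68 between TPS3 and TSL1. Between NTH1 and NTH2 it was 0.59, and between ATH1 and NTH2 0.78. The distances rest on 4 libraries and are descriptions.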

How the data were processed

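The authors deposited 1 table of FPKM, with 4 columns, 1 per library, per the file headers; 0 other columns were left over. Per the submitters' processing notes Cufflinks 2.0.2, Bowtie with no version, CASAVA 1.8.2 and the yeast build sacCer2 were used; for settings, strand and reads with several matches, nothing is given in the sources used here. Per the labels' protocols RNA was extracted with a QIAGEN miRNeasy kit, fragmented, and made into libraries with an Illumina small RNA kit. Of 7133 rows 6720 had a gene ID, and 413 without one were kept out of the test. Of 6025 gene IDs in RefSeq, 5989 had their R64 position once 1 was added to the start, all 7 trehalose genes among them, so R64 was used. None of the 7 overlapped another row, and 99.9% or more of the 32-nt stretches of each were unique in the genome.

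CR was compared with NR by limma 3.58.1 in R 4.3.3 (intensity trend, no covariate, pseudocount of 1, a minimum row mean of 1 FPKM, Benjamini-Hochberg over 6355 genes at 0.05), which was tested on simulated data. The simulated noise was equal in both groups and set from the NR pair, and the planted log2 changes were 2 or more in size. The wider spread of the CR pair and smaller changes were thus not covered. Ratios used an exact two-sided permutation test. Motifs, uniqueness and alignments were computed in Python 3.11.15 with Biopython 1.88, and matplotlib 3.10.9 drew the plots. Named were all 7 trehalose genes, genes of the 5 related lists (1 listed gene is not reported here), and the 2 nearest genes by profile. The members and lists were chosen with earlier results of these data known. Alternatives were other pseudocounts, filters and scalings, the replicate letter as a block, no trend, a 2-fold threshold and leaving out each library. The correlation of A minus B between CR and NR was 0.083, so the letters were not taken to pair the libraries. No counts were used, so no counting intervals were made.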

Additional observations from a re-analysis of the deposited data

How the results depend on the processing

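Under the 12 other settings of the fit, all 7 trehalose genes kept a positive log2 fold, with a range of 2.35 to 2.58 for ATH1, 1.65 to 1.92 for NTH2, 1.07 to 1.27 for NTH1, 1.21 to 1.85 for TPS2, 1.06 to 1.62 for TPS1, 0.86 to 1.58 for TSL1 and 0.20 to 0.94 for TPS3. ATH1 passed in all 12 (adjusted p 0.00022 to 0.045). NTH1, NTH2 and TPS2 passed in 10, TSL1 in 9, TPS1 in 8 and TPS3 in 1; the settings lost by all but ATH1 and TPS3 were those without NR A and without NR B. These tallies include the settings without CR A and without CR B, where passing is not a measure of how well a call holds. The only pass of TPS3 was without CR B. With the replicate block 5 trehalose genes passed as higher, TPS1 being lost (limma adjusted p = 0.051). The letters share only a name across groups, and the block moved the count of all genes to 1150 higher and 986 lower, against 1126 and 836. With no filter on low values 4 trehalose genes passed as higher. Of all genes, 778 then passed as higher and 464 as lower, against 1126 and 836. A common median for the libraries moved the higher share of calls to 44.9%, against 57.4% as deposited, with 6 trehalose genes still higher.

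Leaving out 1 library gave 1 to 7 trehalose genes as higher, and 72 to 1632 higher and 44 to 1656 lower of all genes. It gave 0 to 4 higher and 0 to 2 lower for glucose phosphate supply, 0 to 5 and 0 to 2 for trehalase regulation, 0 to 2 and 0 to 2 for the regulators, 0 to 8 and 0 to 2 for the stress targets, and 0 to 8 higher for glycogen. Where it gave 0, without NR A or without NR B, the lone NR library was taken to vary like the CR pair. The supply list had 1 higher and 0 lower with no filter and 1 higher with the replicate block, and the trehalase regulation list 1 lower under each. The CR minus NR difference in log2 TPS1 over NTH1 ran from -0.21 to 0.47 and turned negative without CR A (-0.21) and without NR A (-0.13). The difference in ATH1 over NTH1 was 1.17 with a pseudocount of 5. The differences of the other 3 ratios stayed positive under the settings tried. Having 2 libraries a group and no read totals limits what can be told.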
